A study of Mus musculus with 9 samples.

Results

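The genes described here belong by name to families of enzymes that add or remove acetyl and methyl groups on histone lysines. Not all of the genes act on histones. They were taken by name from all genes counted, as protein-coding genes off the sex chromosomes whose symbols begin with Kdm, Kmt, Setd, Hdac or Sirt, or with Kat and a digit. The rule gave 57 of the 21965 gene identifiers: 15 Kdm demethylases, 18 Kmt and Setd proteins of the methyltransferase families, 9 Hdac deacetylases, 7 sirtuins and 8 Kat acetyltransferases. RNA was sequenced from spleens of 16-week-old mice in 3 groups of 3: BWF1 females, BWF1 males and females of the BALB/c strain, where BWF1 is the first cross of NZB with NZW, labelled NZB x NZW F1. The series title calls the BWF1 females prone to lupus and both other groups not prone. No animal is labelled with a transgene or a treatment, so BWF1 females differ from the males in sex and from the BALB/c females in strain, while BWF1 males and BALB/c females differ in both. The labels conflict on the material. The title and the design text give splenocytes, and the individual samples are described as macrophages obtained by sorting on CD11b and F4/80.

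Lysine acetylation loosens the hold of histone tails on DNA and is read by bromodomain proteins, and the level of acetylation is set by acetyltransferases against deacetylases. Methylation does not change the charge of the lysine. Its effect depends on the residue: marks at promoters and enhancers are written by the COMPASS enzymes Kmt2 and Setd1, and marks of heterochromatin by Setdb1 and by Kmt5b and Kmt5c, while Kdm enzymes of the Jumonji and amine oxidase families remove them. In lymphocytes and macrophages these enzymes are known for their part in activation, differentiation and inflammatory gene expression. A level of mRNA says nothing direct on the activity of the enzyme or on the marks.

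Gene counts were a small part of each library, and the libraries differed in depth. Genes received 1.29% to 2.82% of the records in a library's count file. Between 11172405 and 88531860 records per library fell on no feature. Another 17816110 to 117504988 did not align uniquely. Gene counts ran from 458608 to 4305003 per library, of which 42.3% to 76.6% fell on the single gene Lars2. The 57 enzymes together received 1427 to 16752 counts, or 0.628% to 0.915% of the counts outside Lars2. Levels below are CPM, counts as a share of a fixed library total after TMM, edgeR's library scaling, on which 3 counts correspond to 0.614 to 6.51 CPM depending on the library, a floor that covers counting error only. BWF1 male 1 stood apart, with the highest Lars2 share, the lowest TMM factor (0.534, against 0.937 to 1.39 in the other 8) and the lowest share of counts on these enzymes. Of the markers that define the labelled sort, Adgre1 (F4/80) was at 5.17 to 20.5 CPM and Itgam (CD11b) at 0 to 6.55 CPM. The B cell gene Cd79a was at 246 to 477 CPM and the T cell gene Cd3e at 42.3 to 106 CPM, so the libraries carried lymphocyte RNA in every group.

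Of the 57 enzymes, 49 passed the count filter and were tested. The other 8 were set aside with few counts over all 9 libraries: Kdm4d with 13, Setd4 with 33, Sirt3 with 36, Hdac11 with 39, Sirt5 with 40, Sirt4 with 42, Kdm8 with 54 and Setd6 with 65. Sirt3, Sirt4 and Sirt5 are the mitochondrial sirtuins. Kdm8 had 20 counts in the BWF1 males, 3 in the BWF1 females and 31 in the BALB/c females. Male 3, the library with the most gene counts, held 18 of the 20. Because depth differed between libraries, raw counts cannot be set against each other across groups. After TMM scaling Kdm8 was at means of 2.51 CPM in BWF1 males, 1.87 CPM in BWF1 females and 8.17 CPM in BALB/c females. Without the filter its adjusted p in edgeR was 0.137 between BWF1 and BALB/c females and 0.118 between BWF1 males and BALB/c females. No fold change is given for these genes because of their counts.

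Per kilobase of exon, the highest level among the enzymes was that of Kmt2d, a COMPASS methyltransferase of enhancers, at 22.0 CPM per kilobase over the 9 libraries. Kat6a, the acetyltransferase of the MOZ complex, followed at 19.8 and Setd2, which methylates histone H3 behind elongating RNA polymerase, at 16.0 CPM per kilobase. Kmt2a stood at 14.6 and Kmt2e at 14.1 CPM per kilobase; Kmt2e belongs to the family by sequence and is not known as an active histone methyltransferase. Within the other classes the highest levels per exon length were those of Kdm4a (12.9 CPM per kilobase), Hdac1 (11.7 CPM per kilobase) and Sirt7 (9.86 CPM per kilobase). The tested enzymes were longer and higher than the tested genes as a whole, with a median exon length of 6795 against 5057 bases and a median level of 39.2 against 25.8 CPM. Their median SD between replicates on the log2(CPM + 1) scale was 0.29, against 0.33 over all 7719 tested genes.

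**Figure D1:**
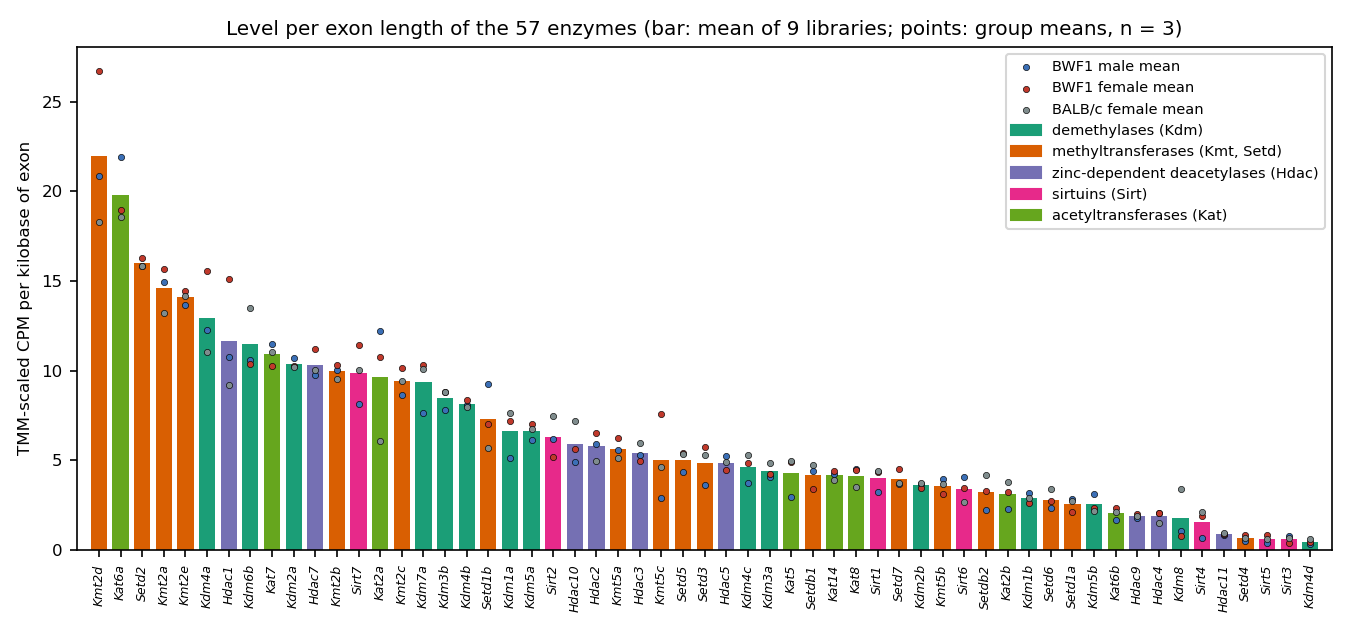
TMM-scaled CPM per kilobase of merged exon for the 57 enzymes, with bars for the mean of 9 libraries coloured by class and points for the 3 group means (n = 3 libraries each). Kmt2d, Kat6a and Setd2 are highest, and Kdm4d is lowest.

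Kmt5c was the 1 enzyme called between BWF1 females and males. It was higher in the females, by 1.27 ± 0.31 (SE) on the log2 scale or 2.41-fold (adjusted p = 0.0279, edgeR's quasi-likelihood test with Benjamini-Hochberg adjustment over all tested genes). In the same comparison 2.19% of all tested genes were called, 0.959% higher and 1.23% lower, so 1 of 49 enzymes, or 2.04%, is a share near the background. Between BWF1 and BALB/c females 0 of 49 enzymes were called, against 3.8% of all genes (1.76% higher, 2.03% lower); 6 of them had an unadjusted p under 0.05, and DESeq2 and limma-voom also called 0. Between BWF1 males and BALB/c females Setd1b was called higher in the males (log2 fold change 0.71 ± 0.17 SE, adjusted p = 0.0165 by edgeR), 1 of 49 against 3.55% of all genes (1.7% higher, 1.85% lower). No enzyme was called lower in any of the 3 comparisons. At an unadjusted p under 0.05 the enzymes numbered 6, 6 and 7 of 49 (12.2%, 12.2% and 14.3%), against 16.4%, 17.0% and 16.3% of all genes. Each group enters a pair of these comparisons, so their values are not independent of each other.

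Kmt5c writes the trimethyl mark on histone H4 that is found in constitutive heterochromatin. The gene (ENSMUSG00000059851) lies at chr7:4740115-4747514 on the plus strand of mm10 and overlaps no other gene in GENCODE M21. Its level was 28.2, 28.5 and 34.3 CPM in the BWF1 females, 7.72, 12.1 and 15.2 CPM in the BWF1 males, and 23.3, 15.5 and 16.6 CPM in the BALB/c females. All 3 BWF1 females were above the 6 other libraries, and all 3 BWF1 males were below them. The raw counts behind these levels were small, at 13, 18 and 17 in the females and 4, 12 and 74 in the males. The difference between BWF1 and BALB/c females was 0.71 ± 0.30 on the log2 scale (adjusted p = 0.214) and that between BWF1 males and BALB/c females -0.56 ± 0.30 (adjusted p = 0.364), both short of the threshold in edgeR. The call between the sexes was kept in 14 of 22 other settings. It was lost, with the direction unchanged, without BWF1 male 1 (log2 fold change 1.10, adjusted p = 0.0509), male 2 (0.0730), male 3 (0.0581), female 2 (0.0503) or female 3 (0.0858), with DESeq2 (0.0887) and without TMM scaling (0.145). A tag in the deposited file names, whose meaning is not stated, splits the libraries; within the 4 that carry 1 of its values, BWF1 males 1 and 3 and females 1 and 3, the log2 fold change was 1.33 with an adjusted p of 0.143.

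The region before the Kmt5c start is shown with that of Kdm4a. With Hdac1, which is named only, these are the 3 enzymes that were higher in all 3 BWF1 females than in the 6 other libraries. The sequences are RefSeq's, build GRCm38.p6, read 5′ to 3′ on the strand of the gene, and end before the first annotated base of the gene. Capitals mark CCAAT and its reverse complement ATTGG, the letters of the CCAAT box bound by NF-Y. The Kmt5c region is chr7:4739877-4740114 on the plus strand and the Kdm4a region chr4:118180044-118180293 on the minus strand.
Kmt5c: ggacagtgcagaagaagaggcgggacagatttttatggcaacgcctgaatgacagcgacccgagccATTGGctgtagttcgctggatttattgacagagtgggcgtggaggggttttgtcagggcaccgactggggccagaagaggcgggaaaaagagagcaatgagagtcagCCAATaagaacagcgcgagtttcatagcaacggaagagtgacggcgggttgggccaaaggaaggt
Kdm4a: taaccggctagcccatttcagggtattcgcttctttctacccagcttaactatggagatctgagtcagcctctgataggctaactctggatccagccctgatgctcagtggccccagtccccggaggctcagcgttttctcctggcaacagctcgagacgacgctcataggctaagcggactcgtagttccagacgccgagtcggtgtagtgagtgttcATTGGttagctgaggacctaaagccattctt
The Kmt5c region held 2 such motifs, starting at -184 and -77 from the RefSeq start, and 13 CpG pairs. Its last 12 bases before the RefSeq start lie inside the GENCODE gene and are not printed. The 13 CpG pairs are those of the 238 printed bases. The Kdm4a region, printed over 250 bases, held 1 such motif, at -31, and 12 CpG pairs. RefSeq promoter windows were given for 45 of the 57 enzymes, 65 windows in all, some of them alternative starts of 1 gene. Over the 250 bases before the start, CCAAT on either strand was found in 41.5% of these windows, against 34.5% of 7960 windows of tested genes and 33.8% of 32851 windows in the table. The GC box GGGCGG, on either strand, was in 60.0% of the enzymes' windows and 60.0% of those of tested genes, and TATAAA in 1.54% against 5.92%. The median number of CpG pairs was 18 in the enzymes' windows and 17 in those of tested genes. Neither printed region held these GC box or TATA box letters.

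Of the other methyltransferases, Setd1b was called in 1 comparison. Setd1b, a catalytic subunit of the COMPASS complex that methylates histone H3 at promoters, lies at chr5:123142193-123168629 on mm10 (ENSMUSG00000038384) and overlaps the annotated gene Gm26745, which the files do not count. It was at 98.4, 124 and 113 CPM in the BWF1 males, 86.8, 74.5 and 92.8 CPM in the BWF1 females, and 60.1, 74.3 and 71.1 CPM in the BALB/c females. The 3 groups did not overlap, and BALB/c females were lowest. The 0.71 log2 difference between males and BALB/c females passed the test; that between BWF1 females and males was -0.41 ± 0.18 (adjusted p = 0.231) and that between BWF1 and BALB/c females 0.30 ± 0.18 (adjusted p = 0.398). The call was kept in 15 of 21 other settings, and lost without BWF1 male 2 (adjusted p = 0.0891), male 3 (0.0712), BALB/c female 1 (0.0936) or female 2 (0.0538), without TMM scaling (log2 fold change 0.26, adjusted p = 0.645) and with the file tag as a covariate (0.0880). Without TMM scaling the median of all genes in that comparison was itself at -0.44. All BALB/c libraries carry 1 value of the file tag, so for both comparisons with BALB/c no replicated value within a tag could be had.

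Kmt2d was at 536, 431 and 631 CPM in the BWF1 females, 295, 485 and 466 CPM in the BWF1 males, and 299, 414 and 383 CPM in the BALB/c females. The BWF1 females were above the BALB/c females without overlap (log2 difference 0.54 ± 0.18, adjusted p = 0.0937 in edgeR) and overlapped the males, of which male 1 was lowest. That difference passed the threshold without BWF1 male 1 (adjusted p = 0.0301) and without the count filter (0.0471). Setd3, which methylates a histidine of actin and is in the set by its name, was lowest in the BWF1 males (17.4, 22.2 and 25.6 CPM). It was at 30.4, 27.0 and 46.4 CPM in the BWF1 females and 33.2, 30.4 and 32.2 CPM in the BALB/c females; the differences were 0.62 (adjusted p = 0.223) and -0.51 (adjusted p = 0.306) on the log2 scale. Setd2 was among the most precisely measured, at 170 ± 9.17, 175 ± 21.1 and 170 ± 11.3 CPM (SD, n = 3) in males and females of BWF1 and in BALB/c females, and its interval between BWF1 females and males was -0.27 to 0.35 on the log2 scale. Over the 16 tested methyltransferases the median log2 fold change was 0.12 between BWF1 females and males, 0.11 between BWF1 and BALB/c females and -0.0021 between BWF1 males and BALB/c females.

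**Figure D2:**
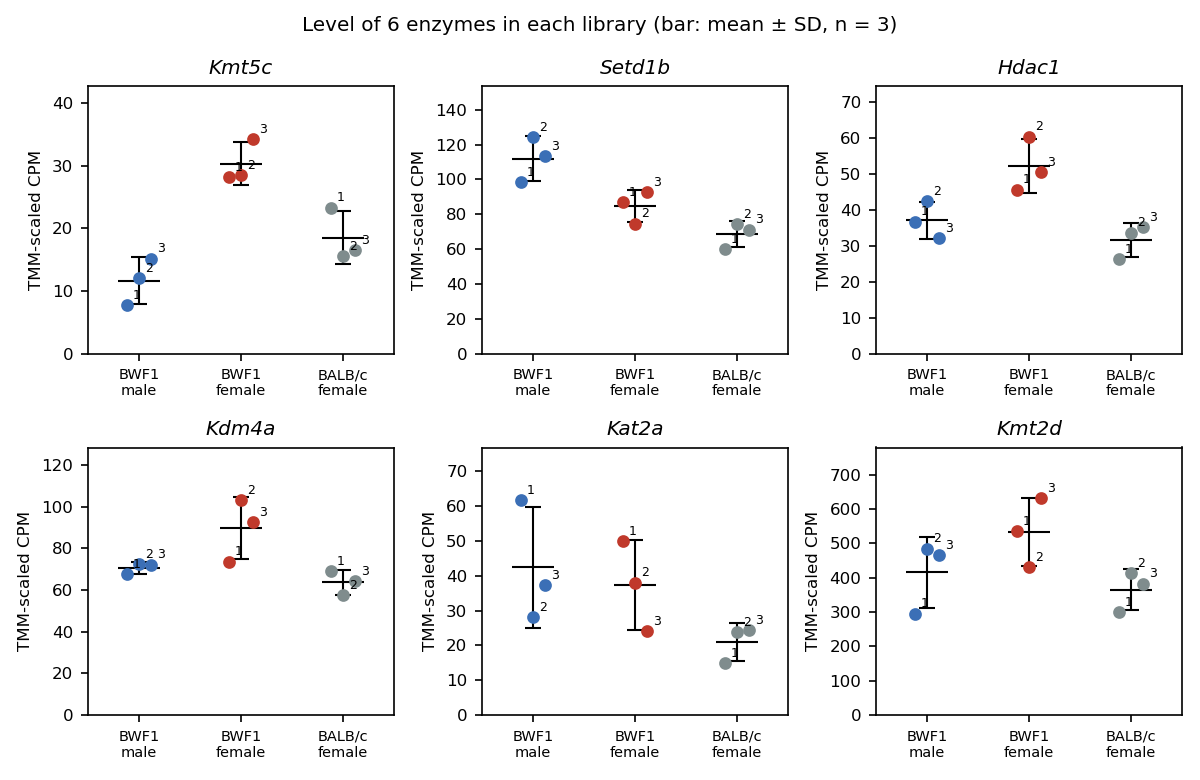
TMM-scaled CPM of 6 enzymes in each of the 9 libraries, numbered by replicate, with bars for the group mean ± SD (n = 3). Kmt5c is highest in the 3 BWF1 females and lowest in the 3 BWF1 males, Setd1b falls into 3 groups that do not overlap, and the groups of Kat2a and Kmt2d are wide.

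Among the demethylases 0 of 13 tested were called in any comparison, against 2.19%, 3.8% and 3.55% of all tested genes. Kdm4a, a Jumonji enzyme that removes methyl groups from histone H3, was at 73.7, 103 and 92.8 CPM in the BWF1 females, 67.5, 72.6 and 72.3 CPM in the BWF1 males, and 69.2, 57.5 and 64.3 CPM in the BALB/c females. The BWF1 females were highest, with female 1 close to the males. The log2 difference was 0.50 ± 0.18 from the BALB/c females (adjusted p = 0.136 in edgeR) and 0.34 ± 0.18 from the males (adjusted p = 0.350 in edgeR). Kdm5b, which removes the methyl marks that COMPASS enzymes write, was highest in the BWF1 males, at 48.2, 54.5 and 51.0 CPM, with 41.2, 36.5 and 38.3 CPM in the BWF1 females and 31.1, 36.8 and 40.9 CPM in the BALB/c females. The males were above both other groups without overlap, by 0.50 from the BALB/c females (adjusted p = 0.191). Without TMM scaling that difference was 0.05, with the median of all genes at -0.44. Kdm7a, a demethylase with a PHD finger, was at 63.7, 84.7 and 82.1 CPM in the BWF1 males, 108, 106 and 96.8 CPM in the BWF1 females and 119, 110 and 76.0 CPM in the BALB/c females. BWF1 males and females did not overlap (log2 difference 0.42, adjusted p = 0.245), while the BALB/c females overlapped both. The log2 fold changes of the 13 ran from -0.41 to 0.44 between BWF1 females and males and from -0.37 to 0.50 between BWF1 and BALB/c females.

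Of the 8 tested zinc-dependent deacetylases 0 were called in any comparison, against 2.19%, 3.8% and 3.55% of all tested genes. Hdac1, the catalytic subunit of the Sin3, NuRD and CoREST complexes, was at 45.5, 60.3 and 50.4 CPM in the BWF1 females, 36.6, 42.4 and 32.1 CPM in the BWF1 males, and 26.1, 33.6 and 35.1 CPM in the BALB/c females. The BWF1 females were above the 6 other libraries, and the males overlapped the BALB/c females. The log2 difference between BWF1 and BALB/c females was 0.73 ± 0.22 (adjusted p = 0.0700 in edgeR), the lowest adjusted p of the 49 in that comparison, and it stayed above the threshold in all 21 other settings (0.0545 to 0.716). From the males the difference was 0.51 ± 0.22 (adjusted p = 0.246). Hdac2, the partner of Hdac1 in the same complexes, was at means of 29.3 CPM in females and 26.4 CPM in males of BWF1, and 22.1 CPM in BALB/c. Hdac10, a polyamine deacetylase, was at 15.4, 19.2 and 15.2 CPM in the BWF1 males, 15.2, 15.9 and 26.2 CPM in the BWF1 females, and 17.7, 25.2 and 30.2 CPM in the BALB/c females. Its groups overlapped, and males and BALB/c females differed by -0.55 ± 0.29 on the log2 scale (adjusted p = 0.358).

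The 4 sirtuins that passed the filter, NAD-dependent deacetylases, had no call, against 2.19%, 3.8% and 3.55% of all tested genes. Of those described here, Sirt7 overlaps the counted gene Mafg and Sirt2 the counted gene Nfkbib. Sirt7, a nuclear and nucleolar sirtuin, was at 49.9, 53.9 and 72.6 CPM in the BWF1 females and 42.4, 39.3 and 43.8 CPM in the BWF1 males, without overlap (log2 difference 0.49, adjusted p = 0.239), and at 42.4, 53.0 and 59.4 CPM in the BALB/c females. Without BWF1 female 3, the highest library, the difference between the sexes was 0.31. Sirt2, mainly cytoplasmic and known for tubulin, was highest in the BALB/c females, at 36.7, 34.9 and 40.9 CPM. It was at 25.1, 34.3 and 34.4 CPM in the BWF1 males and 30.4, 25.4 and 22.2 CPM in the BWF1 females, the latter lower than BALB/c by -0.53 on the log2 scale (adjusted p = 0.262). Sirt1, the nuclear sirtuin of inflammatory transcription factors, was at 19.3, 15.1 and 17.0 CPM in the BWF1 males, 17.4, 22.2 and 30.2 CPM in the BWF1 females and 27.6, 23.3 and 19.5 CPM in the BALB/c females. The males were just below the BALB/c females (log2 difference -0.47, adjusted p = 0.420) and overlapped the BWF1 females.

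All 8 acetyltransferases were tested and 0 were called, against 2.19%, 3.8% and 3.55% of all tested genes. Kat2a, the catalytic subunit of SAGA, was at 61.7, 28.2 and 37.3 CPM in the BWF1 males, 49.9, 38.1 and 24.2 CPM in the BWF1 females, and 14.8, 23.9 and 24.4 CPM in the BALB/c females. The BALB/c females were low, the BWF1 libraries were scattered, and BWF1 male 1 was highest of the 9. Males and BALB/c females differed by 0.97 ± 0.29 (adjusted p = 0.0601 in edgeR), a difference that was called in 7 of 21 other settings and moved to 0.67 (adjusted p = 0.190) without BWF1 male 1. BWF1 and BALB/c females differed by 0.83 ± 0.30 (adjusted p = 0.139), and by 1.06 (adjusted p = 0.0440) without BWF1 female 3. Kat6a, the most abundant of the class, was at 181, 206 and 216 CPM in the BWF1 males, 189, 184 and 149 CPM in the BWF1 females and 184, 180 and 147 CPM in the BALB/c females. Its groups overlapped, and the interval of the female to male difference, -0.53 to 0.11 on the log2 scale, held no 2-fold change. Kat5, the Tip60 subunit of NuA4, overlaps the gene Rnaseh2c and was at 9.64, 8.07 and 13.5 CPM in the BWF1 males, 15.2, 14.3 and 22.2 CPM in the BWF1 females, and 12.7, 10.3 and 29.2 CPM in the BALB/c females. The sexes of BWF1 did not overlap, with a log2 difference of 0.63 ± 0.41 (adjusted p = 0.474).

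Over the 49 tested enzymes the median log2 fold change was 0.09 between BWF1 females and males, 0.04 between BWF1 and BALB/c females and -0.01 between BWF1 males and BALB/c females. The medians over all tested genes were -0.00019, -0.0030 and -0.0026. Between BWF1 females and males 32 of 49 enzymes were above 0, against 49.9% of all genes. Between BWF1 and BALB/c females the number was 31 of 49 (49.7% of all genes) and between BWF1 males and BALB/c females 23 of 49 (49.7% of all genes). Without TMM scaling these numbers were 38, 12 and 4, with the medians of all genes themselves moved to 0.16, -0.28 and -0.44, and the median of the enzymes then lay 0.11, 0.05 and -0.02 from those of all genes. The 95% interval of the fold change stayed within 1 log2 unit of 0, that is, held no 2-fold change either way, for 39 enzymes between BWF1 females and males (79.6%, against 59.6% of all genes), 38 between BWF1 and BALB/c females (77.6% against 59.9%) and 37 between BWF1 males and BALB/c females (75.5% against 68.7%). For the other 10, 11 and 12 a 2-fold change lies within the interval.

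**Figure D3:**
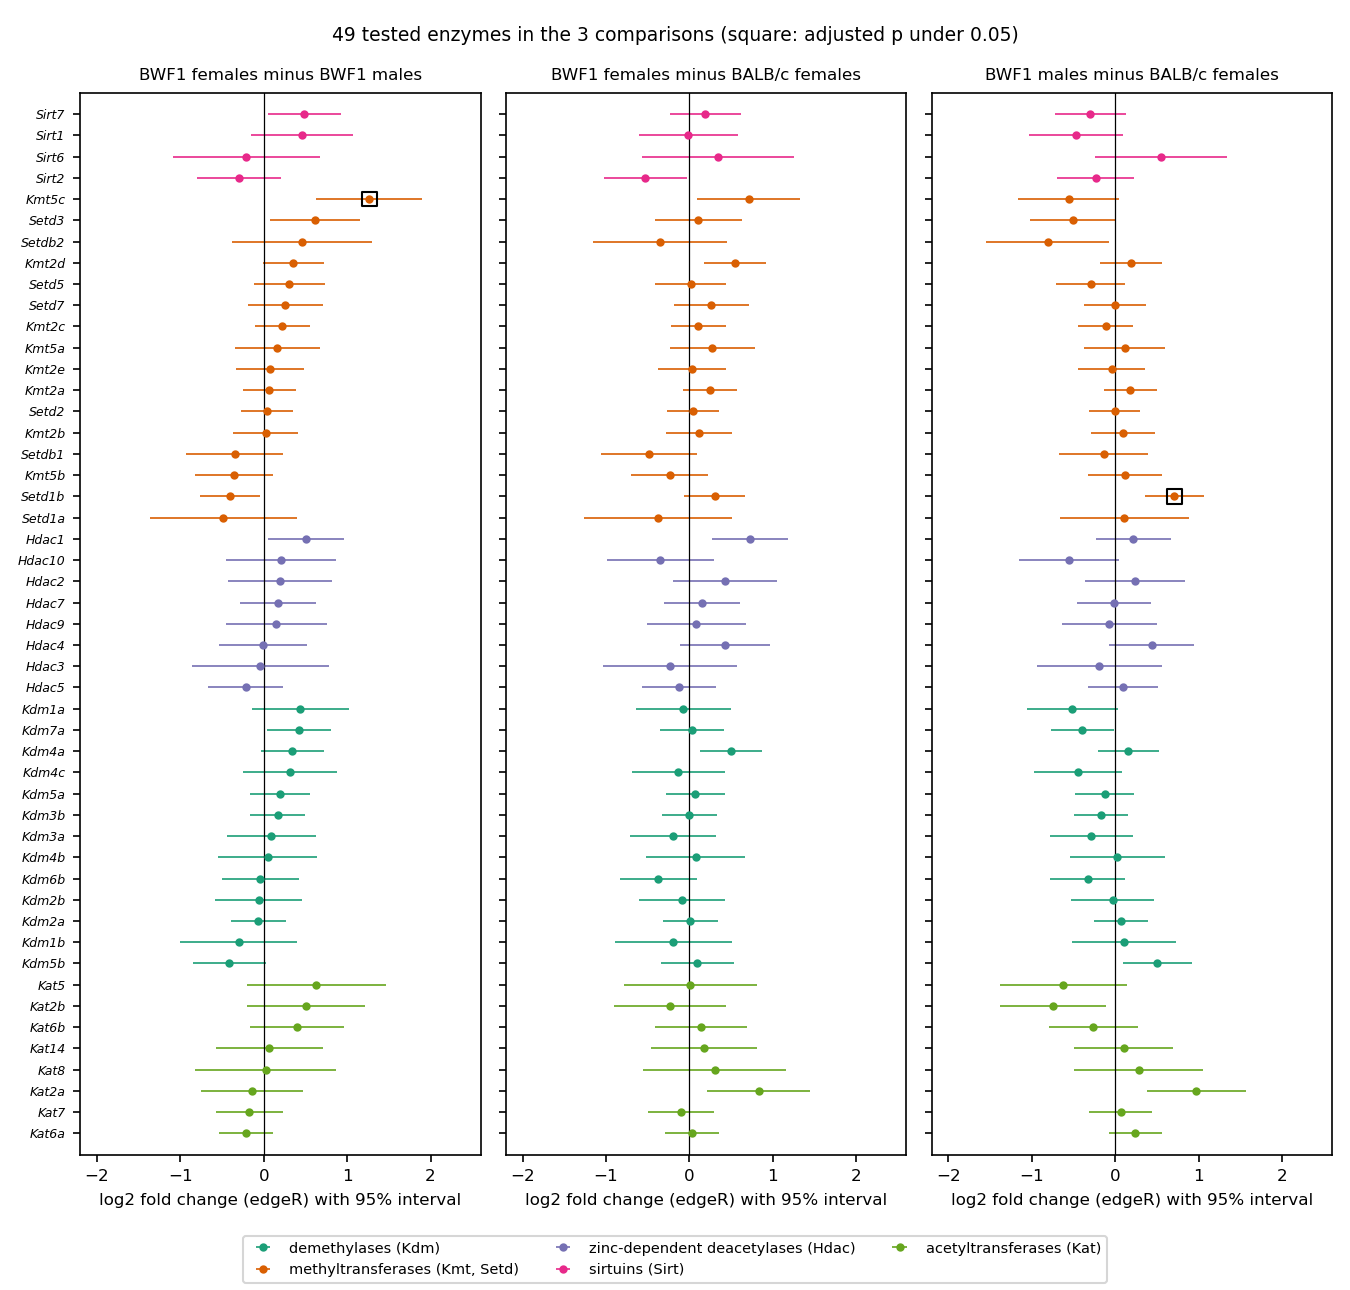
Log2 fold changes of the 49 tested enzymes with 95% intervals in the 3 comparisons, ordered by class. Most intervals span 0, and squares mark the calls, Kmt5c between BWF1 females and males and Setd1b between BWF1 males and BALB/c females.

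Groups that did not overlap made up no larger share of the enzymes than of all genes in any of the 3 comparisons. All 3 BWF1 females lay on 1 side of all 3 BWF1 males for 9 enzymes (18.4%, against 18.8% of tested genes). BWF1 and BALB/c females did not overlap for 7 (14.3% against 21.2%), and BWF1 males and BALB/c females for 10 (20.4% against 23.5%). BWF1 females were above all 6 other libraries for Hdac1, Kdm4a and Kmt5c, 3 of 49 or 6.12%, against 3.78% of tested genes. They were below all 6 for 0 enzymes, against 3.89% of tested genes. BWF1 males were above all others for Kdm5b and Setd1b and below for Kmt5c and Setd3, 2 of 49 each, against 3.6% and 2.73% of tested genes. BALB/c females were above all others for Sirt2 and below for Setd1b, 1 of 49 each, against 4.17% and 3.59%.

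Summed over all 57 enzymes, the level was 3246 ± 432 CPM in the males and 3538 ± 171 CPM in the females of BWF1, and 3232 ± 78.0 CPM in BALB/c (SD, n = 3). The spread of the males came from male 1, at 2752.5 CPM, mostly through the methyltransferases, at 1273 CPM in male 1 against 1801 and 1924 CPM in males 3 and 2. The sums of the sirtuins were lower in the BWF1 males, at 106 to 112 CPM, than in BWF1 females (121 to 145 CPM) and BALB/c females (127 to 140.3 CPM). The acetyltransferase sums of the BWF1 males, 378 to 405 CPM, lay above those of the BALB/c females, 337 to 360.0 CPM, and overlapped those of the BWF1 females, 351 to 395 CPM. These sums are given as a description; they were not tested.

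**Figure D4:**
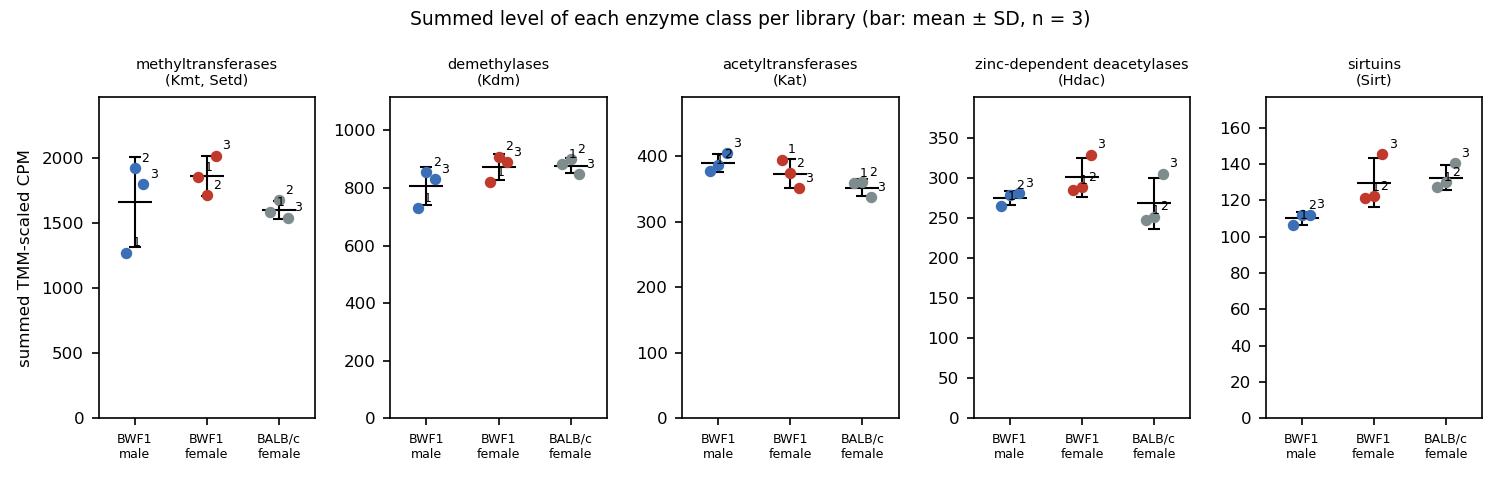
Summed TMM-scaled CPM of each enzyme class in the 9 libraries, numbered by replicate, with bars for the group mean ± SD (n = 3). BWF1 male 1 lies apart in the methyltransferases and demethylases, and the sirtuin sums of the BWF1 males lie below those of the other groups.

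BWF1 male 1 was the lowest of the 9 libraries for 21 of the 49 enzymes, 42.9%, against 17.9% of all tested genes. On the log2(CPM + 1) scale the median difference of male 1 from the mean of males 2 and 3 was -0.20 over the enzymes and 0.00057 over all tested genes. Of the enzymes, Setd1a lay lowest there relative to the other males, at -1.96, but it had 3 counts in male 1, which is the floor, and Setdb2, at -1.35, had 2. For the 18 enzymes with over 10000 bases of exon the median was -0.34, and for the shorter ones -0.0099. Spearman's rho between exon length and this difference was -0.44 across the 49 enzymes and -0.22 across all 7719 genes; the genes share the 3 libraries and are no replicates. Without this library Kmt5c lost its call, as given above, and Setd1b kept its own, with a log2 fold change of 0.78 (adjusted p = 0.00643 in edgeR). The difference of Kmt2d between BWF1 and BALB/c females, which has no male in it, stayed at 0.54 while its adjusted p moved below the threshold.

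**Figure D5:**
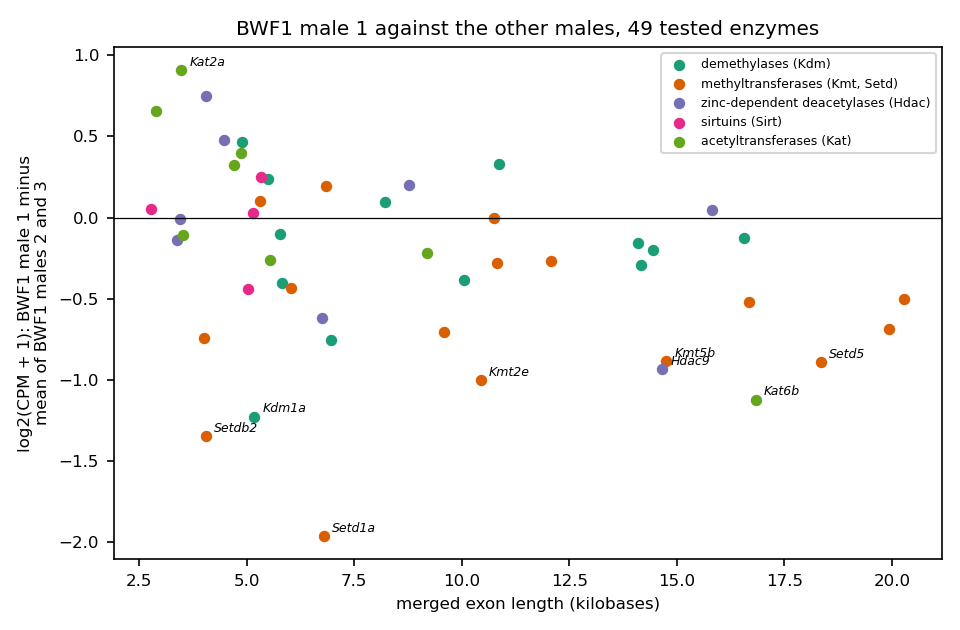
Difference of log2(CPM + 1) between BWF1 male 1 and the mean of BWF1 males 2 and 3 against merged exon length, for 49 tested enzymes coloured by class. Most enzymes with over 10000 bases of exon lie below 0, and Setd1a, with 3 counts in male 1, is lowest at -1.96.

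Of the 5 X- and Y-linked relatives, left out by the rule, 3 were tested and Kdm6a was called. Kdm6a, an X-linked demethylase that escapes X inactivation, was at 111, 128 and 119 CPM in the BWF1 females, 34.7, 34.3 and 35.8 CPM in the BWF1 males, and 62.2, 71.7 and 74.1 CPM in the BALB/c females. The 3 groups did not overlap, and all 3 differences were called by edgeR: 1.77 between BWF1 females and males (adjusted p = 1.72e-06), 0.79 between BWF1 and BALB/c females (0.00746) and -0.98 between BWF1 males and BALB/c females (0.00102). Kdm5c, another escape gene, was at means of 122 CPM in females and 86.1 CPM in males of BWF1 and 113 CPM in BALB/c, and differed by 0.51 between the BWF1 sexes (adjusted p = 0.119 in edgeR). Its Y-linked counterpart Kdm5d was at 13.5, 27.2 and 24.2 CPM in the males and at 0 in all 6 female libraries, as the labels of sex have it. The X-linked deacetylases Hdac6 and Hdac8 were low, at 1.93 to 12.3 and 4.03 to 14.1 CPM.

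Proteins that work with these enzymes were counted from 8 lists of 142 chromatin genes, of which 127 were tested. The numbers called in the 3 comparisons were 1, 3 and 1 of 127, against 2.19%, 3.8% and 3.55% of all tested genes. The gene called between BWF1 females and males was Meaf6, a subunit of the MOZ and NuA4 acetyltransferase complexes. It was at 23.9, 28.5 and 20.2 CPM in the females and 7.72, 9.08 and 12.5 CPM in the males (log2 difference 1.21, adjusted p = 0.0482 in edgeR). Between BWF1 and BALB/c females the 3 calls were all higher in BWF1: Ehmt1, a methyltransferase of histone H3 (0.92, adjusted p = 0.00593), and the remodelling factors Smarca4 (0.66, adjusted p = 0.0163) and Bptf (0.63, adjusted p = 0.0225). Ehmt1 was at 102, 68.2 and 74.6 CPM in the BWF1 females, 57.9, 56.5 and 55.9 CPM in the BWF1 males and 48.0, 38.8 and 41.9 CPM in the BALB/c females, 3 groups without overlap. Between BWF1 males and BALB/c females the call was Kansl3 of the NSL acetyltransferase complex, lower in the males (-0.93, adjusted p = 0.0338). The COMPASS subunits (12 tested), Polycomb subunits (17), corepressor subunits of the deacetylases (26), other demethylases (6) and DNA methylation genes (8) had 0 calls in the 3 comparisons. The medians of the 127 were 0.03, 0.07 and 0.0041 in the 3 comparisons. The largest median of a list was 0.54 between BWF1 and BALB/c females, that of the DNA methylation genes, with no gene of the list past the threshold.

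Markers of cell types moved with the groups, and in bulk RNA fewer cells of a type and less RNA per cell cannot be told apart. Between BWF1 females and males, where Kmt5c was called, 1.23% of all tested genes were called lower in the females and 0.959% higher. Called lower were 8 of 16 T cell and 6 of 11 macrophage genes. So were 4 of 8 NK cell genes and 1 of 7 plasma cell genes. Called higher in the females were 3 of 23 cell cycle, 1 of 14 erythroid and 1 of 5 stromal genes. Of 24 genes of the stress and dissociation response 1 was higher and 3 were lower. The median log2 fold change of the erythroid list was 1.96 there. The sums over the T cell list ran from 614 to 703 CPM in the BWF1 females, from 978 to 1194 CPM in the BWF1 males and from 659 to 889 CPM in the BALB/c females. The macrophage markers summed to 243 to 266, 514 to 741 and 376 to 440.2 CPM in the same order, the NK markers to 91.1 to 109, 287 to 312 and 123 to 163 CPM, and the cell cycle genes to 956 to 1307, 546 to 812 and 779 to 1073 CPM. Between BWF1 and BALB/c females 2.03% of all tested genes were called lower in BWF1 and 1.76% higher. Called lower were 15 of 24 genes of the stress and dissociation response and 4 of 14 B cell genes. So were 2 of 16 T cell, 2 of 8 neutrophil, 1 of 11 macrophage and 1 of 8 NK cell genes. The same held for 1 of 9 monocyte, 1 of 14 erythroid and 1 of 5 stromal genes. Called higher were 1 of 8 neutrophil, 1 of 5 stromal and 1 of 23 cell cycle genes and the 1 tested megakaryocyte gene. The stress genes summed to 1942 to 2174 CPM in the BWF1 females, 2225 to 3015 CPM in the males and 3374 to 5327 CPM in the BALB/c females, and the B cell genes to 2692 to 3026, 2747 to 3473 and 3805 to 3863 CPM. Between BWF1 males and BALB/c females, where Setd1b was called, 1.85% of all tested genes were called lower in the males and 1.7% higher. Lower were 11 of 14 erythroid genes and 7 of 24 stress genes, and 1 gene each of the B cell, stromal and cell cycle lists. Higher were 7 of 11 macrophage, 4 of 8 NK and 4 of 7 plasma cell genes. So was 1 gene each of the T cell, monocyte, neutrophil, stromal and cell cycle lists. The erythroid genes summed to 215 to 1435 CPM in BWF1 males, 893 to 2861 CPM in BWF1 females and 1576.5 to 4631 CPM in BALB/c females. The plasma cell genes summed to 1249.7 to 2066 CPM in BWF1 males, 561 to 835 CPM in BWF1 females and 679.9 to 821 CPM in BALB/c females. No gene of these lists was at 0 in all 9 libraries. The part of these shifts in the levels of Kmt5c and Setd1b was not tested.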

How the data were processed

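RNA of 9 mouse spleen samples was sequenced, 3 per group. The authors deposited raw counts per gene and library, the unit tested here. The submitters' processing notes list STAR 2.6, FastQC 0.10.1 and mm10. The annotation release and strand setting of the counting are not given in the sources used here. How reads of overlapping genes were assigned is therefore not known. Between 3531 and 38674 records per library were listed as ambiguous, apart from the gene counts. Of 21965 identifiers, 21939 matched GENCODE M21, used for names and exon lengths. Genes passing filterByExpr with a minimum count of 10 (7719) were fitted with edgeR 4.0.16's quasi-likelihood test (R 4.3.3), TMM scaling and 3 groups in 1 model, with Benjamini-Hochberg adjustment and a threshold of 0.05. Standard errors and 95% intervals come from that fit. It draws the variance of each gene toward that of all tested genes, with 19.38 prior degrees of freedom. The intervals are therefore not the spread between 3 animals per group for that gene alone. The pipeline was run on simulated counts with 1 spread between replicates shared by all genes. That setting is simpler than these libraries and does not show how the tests perform on them. Summary lines of the count files were left out of the fits.

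Members follow the name rule. Values per library are given for members called, for the member with the lowest p per class and comparison, and for the most abundant per class and exon length; Setd3, Setd2, Hdac2, Setd1a and Setdb2 were added after their values were seen. The members and lists were chosen with earlier results of these data known. Alternatives were other scalings, filters and tests (DESeq2 1.42.0, limma 3.58.1), a replicate block, the file tag, and leaving out each library.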

Additional observations from a re-analysis of the deposited data

How the results depend on the processing

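No direction reversed in any of the settings run on the named results. Between BWF1 females and males the number of enzymes called (1) fell to 0 without TMM scaling, with DESeq2's Wald test and within the 4 libraries of 1 file tag, and ran from 0 to 1 on leaving out single libraries. Between BWF1 and BALB/c females (0) it was 1, Kmt2d, without the count filter, and 0 to 1 on leaving out single libraries (Kmt2d without BWF1 male 1, Kat2a without BWF1 female 3). Between BWF1 males and BALB/c females (1) it was 0 without TMM scaling and with the file tag as covariate. It was 2, Setd1b and Kat2a, with Lars2 removed first, without the count filter, with limma-voom, with only both groups in the fit and with edgeR's earlier quasi-likelihood method, a setting chosen after seeing the data; single libraries left out gave 0 to 2, and without BWF1 male 2 the 1 enzyme called was Kat2a. The cause was not tested.

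The labels do not say whether the replicate numbers pair the samples. Deviations from the group means correlated at -0.09 to 0.06 between same-numbered libraries. Between differently numbered libraries they correlated at -0.12 to 0.14. With 3 libraries per group this gives no sign of pairing but cannot exclude it. With a replicate block the enzymes called were 1, 0 and 1, among 118, 255 and 241 genes in the order of comparisons above.

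Over all genes, calls also moved by over 1.5 times. Between BWF1 females and males (169 calls) they were 60 without TMM scaling, 92 with DESeq2, 304 without the filter, 98 with only both groups in the fit, 99 within 1 tag, and 99, 58 and 108 without BWF1 male 2, male 3 and female 3. Between BWF1 and BALB/c females (293) they were 130 without TMM scaling, 169 with DESeq2, 160 with the file tag, and 186, 188 and 195 without each BALB/c library. Between BWF1 males and BALB/c females (274) they were 650 with limma-voom, 485 with the earlier method, 510 without the filter, 433 with Lars2 removed, 153 with the file tag, and 150 and 120 without BWF1 male 3 and BALB/c female 2. Without TMM scaling 76.7%, 17.7% and 9.52% of calls were higher, against 43.8%, 46.4% and 47.8%. At these gene counts 2-fold changes lie within the intervals of 10 to 12 enzymes per comparison.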
